A study of Mus musculus with 6 samples.

Results

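The genes described here are 10 that encode immune checkpoint ligands and receptors or signals that protect a cell from being engulfed, chosen by name: Cd47, Sirpa, Cd24a, Cd274, Pdcd1lg2, Cd80, Cd86, Lgals9, Havcr2 and Vsir. All 10 were found among the 52459 rows of the count table. The series holds 6 RNA-seq libraries of mouse liver tumours with the genotype MYC-LAP-tTA: the LAP promoter, active in liver, drives the transactivator tTA, and tTA switches on a MYC transgene. In 3 of them MYC was active (MYC_On), and the other 3 were taken at day 4 of MYC inactivation (MYC_Off). All 6 libraries share this genotype. Separate animals are not named for the replicates, so a p-value speaks for the spread among these libraries, which may be technical. The transgene is confined to cells in which the liver promoter is active, mainly hepatocytes, whereas the RNA came from whole tumour tissue.

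Phagocytes weigh signals on the surface of the cells they meet. CD47 on a target cell engages SIRPα, encoded by Sirpa, on macrophages and dendritic cells, whose cytoplasmic tail recruits the phosphatases encoded by Ptpn6 and Ptpn11 and restrains engulfment. CD24, encoded by Cd24a, acts in the same way through an inhibitory Siglec receptor. T cells are restrained when PD-L1 (Cd274) or PD-L2 (Pdcd1lg2) binds PD-1, and are co-stimulated or inhibited when CD80 or CD86 binds CD28 or CTLA-4. Galectin 9 (Lgals9) is a ligand of TIM-3 (Havcr2), and VISTA (Vsir) is an inhibitory protein of myeloid and T cells. Binding of MYC at the Cd47 and Cd274 genes has been described in other MYC-driven tumours, and Cd274 is a classical interferon-inducible gene.

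The promoters of Cd47, Cd274 and Lgals9 are shown because MYC or interferon signalling is known to act on these genes. RefSeq promoter windows on GRCm38, the assembly of the mm10 build named for these data, were at hand for 7 of the 10 genes (8 windows of 300 bases, from 250 before to 50 after the start site). The 250 bases before the start site read as follows, 5′ to 3′ on the gene's strand, with capitals marking a match to the interferon response core, GAAA followed after any 2 bases by GAAA (TTTC, any 2 bases, TTTC on the other strand).
Cd47, chr16:49855404-49855653, plus strand: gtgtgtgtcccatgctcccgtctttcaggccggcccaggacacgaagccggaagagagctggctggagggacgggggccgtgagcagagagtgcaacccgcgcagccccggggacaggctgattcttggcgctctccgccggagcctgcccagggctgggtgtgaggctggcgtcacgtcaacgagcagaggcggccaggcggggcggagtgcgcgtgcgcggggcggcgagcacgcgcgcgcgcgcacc
Cd274, chr19:29367188-29367437, plus strand: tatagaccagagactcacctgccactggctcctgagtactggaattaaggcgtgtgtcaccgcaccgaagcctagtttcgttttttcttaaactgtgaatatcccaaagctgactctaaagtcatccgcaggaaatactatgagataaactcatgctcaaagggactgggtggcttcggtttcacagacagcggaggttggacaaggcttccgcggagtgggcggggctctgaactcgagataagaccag
Lgals9, chr11:78984925-78985174, minus strand: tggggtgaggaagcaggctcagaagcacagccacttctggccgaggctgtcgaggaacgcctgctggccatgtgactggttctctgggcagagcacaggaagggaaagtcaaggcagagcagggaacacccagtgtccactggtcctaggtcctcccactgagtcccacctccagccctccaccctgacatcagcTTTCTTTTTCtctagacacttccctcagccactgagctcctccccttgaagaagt
In none of the 8 windows was there a match to CACGTG, the E-box bound by MYC with MAX, which reads the same on either strand. Of all 32851 promoter windows of that length, 7.15% held CACGTG. The interferon response core was found in the Lgals9 window only, in 2 places that did not overlap, starting 55 bases before and 15 bases after the start site, and in 3.44% of all windows. The Cd47 window stood out by its base composition, with 35 CpG dinucleotides and 74.0% G and C, against medians of 7 and 52.7% over all windows. Cd274 and Vsir had 15 CpG each, and Pdcd1lg2, Cd80, Lgals9 and Havcr2 had 3 or 4. These matches describe the letters in the windows only.

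Column totals ran from 16292718 to 19265623 reads. Levels are CPM, that is reads scaled to a common library total, with TMM scaling for composition. Myc checked the labels, at 779 to 1018 CPM in MYC_On and 10.2 to 74.8 CPM in MYC_Off (adjusted p = 0.0035 with edgeR), although this row cannot separate the human transgene from the mouse gene. MYC_Off replicate 1 stood apart. It held the most Myc of its group and the most reads of the macrophage and lymphocyte markers given below, so results that lean on it are given with and without it. The column names of all libraries share a code that reads as a flow cell and lane. In their last part MYC_Off replicate 3 has RAAPEI where the others have RBAPEI. What these codes stand for is not stated. Fold changes are MYC_Off relative to MYC_On, and adjusted p-values come from a quasi-likelihood fit in edgeR over 14130 tested genes (Benjamini-Hochberg). The median log2 fold change of all tested genes was 0.18 with TMM scaling and -0.56 with library size only, a shift of -0.74.

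Of the 10 genes, 6 rose after MYC inactivation: Cd47, Sirpa, Cd24a, Cd274, Havcr2 and Vsir. Cd80, Cd86 and Lgals9 did not pass the threshold, and Pdcd1lg2 had too few reads to be tested. Among all tested genes 29.9% were called higher and 22.8% lower, or 17.9% and 37.5% with library size only, where 4 of the 10 were still called higher (Cd47, Cd24a, Havcr2 and Vsir) and 55.4% of genes were called in either direction, against 52.7% with TMM. The same 4 passed edgeR's glmTreat test against a minimum change of 2-fold, which 18.5% of genes passed upward, 10.1% downward and 28.7% in all. No member fell in edgeR's test (0 lower, also 0 at an unadjusted p under 0.05, 0 with DESeq2 and 0 with limma-voom). MYC_Off lay wholly above MYC_On for 7 of the 10, the 6 called genes and the sparse Pdcd1lg2. The same held for 33.2% of all tested genes, and 29.8% lay wholly below.

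**Figure D1:**
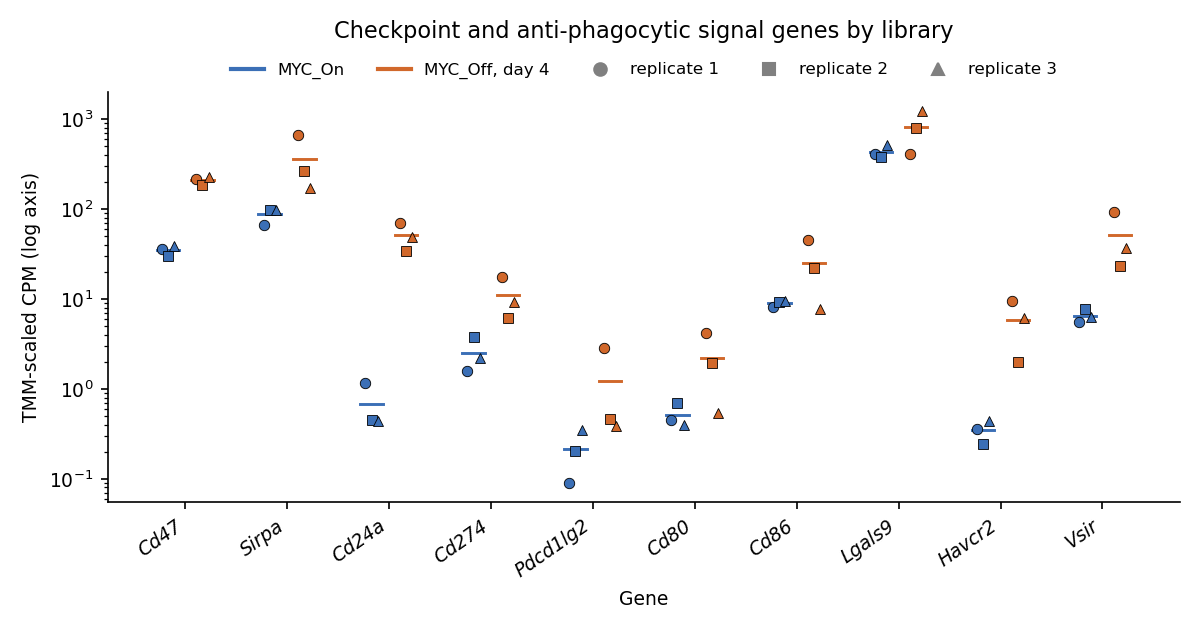
TMM-scaled CPM of the 10 genes on a log axis, with 1 symbol per library (blue MYC_On, orange MYC_Off, shape for the replicate) and a line at each group mean. Cd47 is raised to 185 to 224 CPM in all 3 MYC_Off libraries, whereas Sirpa, Cd80, Cd86 and Vsir are highest in replicate 1 and Lgals9 is lowest there.

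Cd47, the widely expressed ligand that inhibits phagocytosis, rose about alike in every MYC_Off library. It stood at 36.1, 30.0 and 38.7 CPM in MYC_On replicates 1 to 3 and at 214, 185 and 224 CPM in MYC_Off. The groups were far apart and each was narrow, so that the mean rose from 34.9 ± 4.45 to 208 ± 20.0 CPM (SD, n = 3). Its log2 fold change was 2.57 (SE 0.23, adjusted p = 0.000805), or 5.94-fold. It was 2.40 (adjusted p = 0.000361) without MYC_Off replicate 1 and 1.85 (adjusted p = 0.00153) with library size only. Among the 9 tested genes Cd47 had the smallest ratio of highest to lowest MYC_Off library, 1.21. In RNA from whole tissue a change in the number of cells of a type and a change in RNA per cell cannot be told apart, here or in the results that follow.

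Sirpa, the receptor for CD47 on myeloid cells, rose as well but unevenly. It stood at 65.5, 97.1 and 97.8 CPM in MYC_On and at 658, 263 and 169 CPM in MYC_Off. Replicate 1 held by far the most, and even the lowest MYC_Off library lay above all MYC_On libraries. The log2 fold change was 2.06 (SE 0.53, adjusted p = 0.0146) with all libraries and 1.17 (adjusted p = 0.0128) without MYC_Off replicate 1. The call did not hold with library size only (1.49, adjusted p = 0.0702) or without MYC_On replicate 1, 2 or 3 (adjusted p = 0.0673, 0.0583 and 0.0553). Sirpa belongs to a family of related genes, and whether reads were shared with its relatives was not tested.

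Cd24a had the steepest rise of the 10. This small glycoprotein anchored to the membrane by a lipid is found on immature blood cells, granulocytes and epithelial progenitors. Its reads numbered 26, 11 and 9 in MYC_On and 1270, 443 and 635 in MYC_Off, which is 1.16, 0.450 and 0.444 CPM against 69.8, 33.9 and 48.8 CPM. On the log2 scale the change was 6.20 (SE 0.53, adjusted p = 0.000805), a 73.5-fold difference, and 5.75 without MYC_Off replicate 1. No MYC_Off library came near the MYC_On range.

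Among cells that carry CD24, erythroid and neutrophil markers moved in the same direction, and biliary and progenitor markers were mixed. Of 8 tested erythroid genes 8 rose, with a summed level of 32.0 to 93.6 CPM in MYC_On and 756 to 2348 CPM in MYC_Off. All 7 tested neutrophil genes rose, from a summed 2.29 to 3.45 CPM to 99.1 to 154 CPM. The biliary and progenitor list was divided, with 3 of 8 tested genes higher (Sox9, Spp1 and Prom1) and 1 lower (Krt7). Its median log2 fold change was 1.56, against 0.18 over all tested genes. Relative to the MYC_On mean, the list's median log2 CPM was -0.58, -0.08 and 0.66 in MYC_On. In MYC_Off it was 0.65, -0.28 and 0.06, so the groups overlapped. Leaving out any 1 of MYC_On replicates 1 and 3 and MYC_Off replicates 2 and 3 ended the Krt7 call. Epcam, a defining marker of that list, stood at 21.0, 25.9 and 48.9 CPM in MYC_On and at 33.0, 13.9 and 40.2 CPM in MYC_Off, with overlapping groups. Sox9 rose steeply, from 0.134, 0 and 0.0986 CPM to 4.89, 6.35 and 5.15 CPM, and no alternative setting ended its call. Prom1 went from 0, 0.123 and 0 CPM to 4.84, 3.14 and 0.922 CPM. Neither Sox9 nor Prom1 overlapped between groups. The part of these cells in the Cd24a reads was not tested. By the root mean square difference of centred log2 CPM over the 6 libraries, Vwf (0.47) and S100a9 (0.53) were among the 3 genes most like Cd24a. Vwf, the closest, is in the endothelial list, and S100a9 is in the neutrophil list.

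Siglecg, the mouse counterpart of the CD24 receptor, was nearly silent with MYC on. It had 0, 2 and 0 reads in MYC_On and 48, 8 and 5 in MYC_Off, and did not pass the filter on low counts. With no filter its log2 fold change was 5.01 (adjusted p = 0.00919), a value that depends on the few MYC_On reads.

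Cd274, which encodes PD-L1, rose from a low level. It stood at 1.56, 3.77 and 2.22 CPM in MYC_On and at 17.7, 6.20 and 9.14 CPM in MYC_Off. The groups did not overlap, although MYC_On replicate 2 and MYC_Off replicate 2 were only 1.65 times apart. The log2 fold change was 2.13 (SE 0.54, adjusted p = 0.0147), and 1.46 (adjusted p = 0.0344) without MYC_Off replicate 1. The call was lost with library size only (1.50, adjusted p = 0.0843) and without MYC_On replicate 1 or 3 (adjusted p = 0.0627 and 0.065). An annotated antisense transcript on the opposite strand covers 14.1% of the Cd274 exon bases, and without a stated strand setting its reads cannot be separated. No other member shares exon bases with another annotated gene.

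Pdcd1lg2, the gene for PD-L2, lies 22.8 kb from Cd274 on chromosome 19. Only 14 reads over MYC_On and 63 over MYC_Off fell on it, 52 of the latter in replicate 1, against 6 and 5 in replicates 2 and 3. With no filter its log2 fold change was 2.43 (SE 1.00, adjusted p = 0.0869). Per kilobase of exon, Cd274 exceeded Pdcd1lg2 in each library, by 9.47, 9.96 and 3.48 times in MYC_On and by 3.35, 7.31 and 12.9 times in MYC_Off. The balance of the 2 ligands overlapped between groups.

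Their receptor was scarcely detected. Pdcd1 (PD-1) had 4, 2 and 1 reads in MYC_On and 67, 0 and 1 in MYC_Off, so that almost all of its reads came from MYC_Off replicate 1, and it was not tested. In the 2 other MYC_Off libraries the floor of 3 reads is 0.23 CPM, and any Pdcd1 difference below that was not detectable at this depth.

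Most genes listed as acting upstream of PD-L1 or on its stability rose, with exceptions. In the list of PD-L1 inducers and stabilisers 13 of 16 tested genes rose and 1 fell, and the median log2 fold change was 1.70 against 0.18 over all tested genes. Relative to the MYC_On mean the list's median log2 CPM was 1.86, 1.74 and 2.08 in MYC_Off replicates 1, 2 and 3, where Cd274 stood at 2.85, 1.35 and 1.91. The interferon gamma receptor chain Ifngr2 and the feedback inhibitor Socs1 did not pass, and both overlapped between groups. The interferon receptor chain Ifnar2 rose from 16.1 ± 1.18 to 87.8 ± 17.6 CPM, the kinase Jak2 from 9.86 ± 1.13 to 39.3 ± 7.32 CPM and the transcription factor Irf2 from 17.5 ± 1.29 to 107 ± 39.6 CPM. Irf1, a direct activator of Cd274, rose by 1.72 on the log2 scale (SE 0.21, adjusted p = 0.00124), from 16.0 ± 1.19 to 52.8 ± 7.32 CPM. The 2 proteins known to stabilise PD-L1 at the membrane moved apart: Cmtm6 rose from 48.1 ± 5.76 to 126 ± 23.6 CPM and Cmtm4 fell from 132 ± 29.1 to 56.5 ± 15.9 CPM.

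Cd80 and Cd86, the ligands through which antigen-presenting cells co-stimulate T cells, followed the order of the MYC_Off libraries and did not pass the test. Cd86 stood at 8.15, 9.25 and 9.42 CPM in MYC_On and at 45.7, 22.3 and 7.76 CPM in MYC_Off. In replicate 3 it was below every MYC_On library, while in replicate 1 it was about 5 times the MYC_On mean. The log2 fold change of Cd86 was 1.50 (SE 0.58, adjusted p = 0.0615). Cd80 was scarcer, at 0.445, 0.696 and 0.395 CPM in MYC_On and 4.18, 1.91 and 0.538 CPM in MYC_Off. Its log2 fold change was 2.10 (SE 0.76, adjusted p = 0.0507).

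Whether these 2 genes pass hangs on single libraries. Without MYC_Off replicate 3 both were called (Cd80 2.50, adjusted p = 0.0129, Cd86 1.87, adjusted p = 0.00771), and without MYC_Off replicate 1 they stood at 1.10 and 0.60. DESeq2 called both (adjusted p = 0.0302 and 0.0373). Per kilobase the ratio of Cd80 to Cd86 was 0.054, 0.0744 and 0.0414 in MYC_On and 0.0904, 0.0849 and 0.0685 in MYC_Off, so CD86 transcripts were the more abundant in each library and the groups overlapped. Cd80 was also the member most like Cd86 over the 6 libraries (root mean square difference 0.29 in log2 CPM).

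The receptors for these ligands were sparse outside MYC_Off replicate 1. Cd28, the activating receptor, had 2, 9 and 13 reads in MYC_On and 160, 23 and 17 in MYC_Off, and was called higher (log2 fold change 3.43, SE 1.00, adjusted p = 0.0237). Leaving out MYC_Off replicate 1 ended that call (1.91, adjusted p = 0.0674), as did leaving out MYC_On replicate 1, 2 or 3 (adjusted p = 0.0789, 0.0916 and 0.0532). Ctla4, the inhibitory receptor, had 0, 1 and 1 reads in MYC_On and 54, 3 and 0 in MYC_Off and was not tested.

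In the list of lymphocyte checkpoint and co-stimulatory receptors 4 of 6 tested genes rose, Cd28, Lag3, Tnfrsf18 and Icos, and 7 of the 13 listed had too few reads. The number called was at most 1 without MYC_Off replicate 1 or any 1 MYC_On replicate, 2 without MYC_Off replicate 2 and 9 without MYC_Off replicate 3. Lag3 stood at 0.401, 1.72 and 1.97 CPM in MYC_On and at 13.0, 4.67 and 3.15 CPM in MYC_Off. Icos, at 7.97, 2.53 and 0.154 CPM in MYC_Off, was back within the MYC_On range in replicate 3.

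Lgals9 had the highest level per kilobase of the 10 in each library, although in MYC_Off replicate 1 Sirpa came near it (189 against 134 CPM per kilobase) and had more CPM. Its order over the MYC_Off libraries differed from that of most other members. It stood at 407, 381 and 512 CPM in MYC_On and at 405, 786 and 1227 CPM in MYC_Off. MYC_Off replicate 1, highest for most members, lay within the MYC_On range, and replicate 3 was the highest. The log2 fold change was 0.89 (SE 0.45, adjusted p = 0.129). It was 1.07 (adjusted p = 0.0218) without MYC_Off replicate 1, 0.34 (adjusted p = 0.465) without MYC_Off replicate 3 and 0.07 (adjusted p = 0.868) with library size only. Among the 8 windows the interferon response core was found in the Lgals9 promoter only. The sequence shown above holds the match before the start site.

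Havcr2, the TIM-3 receptor for galectin 9, rose from near the limit of detection. It had 8, 6 and 9 reads in MYC_On and 171, 26 and 79 in MYC_Off, which is 0.356, 0.246 and 0.444 CPM against 9.40, 1.99 and 6.07 CPM. On the log2 scale the change was 4.05 (SE 0.70, adjusted p = 0.0036), and 3.36 (adjusted p = 0.0049) without MYC_Off replicate 1. Relative to the MYC_On mean, Havcr2 stood at 4.40, 2.22 and 3.78 in log2 CPM in MYC_Off replicates 1, 2 and 3. On that scale the median of the T and NK cell markers given below was 5.24, 2.08 and 0.14. The macrophage median was 3.23, 1.97 and 1.59, and the dendritic cell median 4.23, 1.65 and 2.14. Which cells carried the Havcr2 reads was not tested. Per kilobase the excess of Lgals9 over Havcr2 was 1456, 1974 and 1469 in MYC_On and 54.8, 503 and 257 in MYC_Off, without overlap. Such a ratio within a library does not depend on the scaling between libraries.

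Vsir, which encodes VISTA, rose in all 3 MYC_Off libraries. It stood at 5.52, 7.65 and 6.21 CPM in MYC_On and at 93.5, 23.0 and 36.7 CPM in MYC_Off. Its log2 fold change was 2.98 (SE 0.53, adjusted p = 0.00404), and 2.06 (adjusted p = 0.00181) without MYC_Off replicate 1. Genes most like Vsir were Acvrl1 (root mean square difference 0.08), Hdac7 (0.12) and Amz1 (0.13). Igsf11, a proposed partner of VISTA, rose by 2.21 (SE 0.47, adjusted p = 0.00727).

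**Figure D2:**
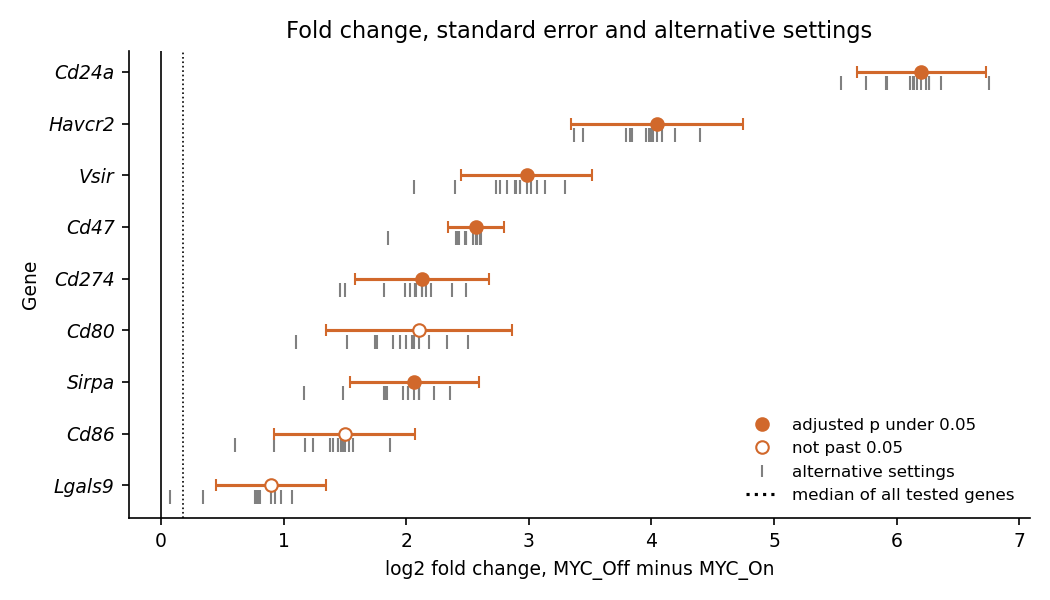
Log2 fold change (MYC_Off minus MYC_On) of the 9 tested genes with its standard error, filled where the adjusted p was under 0.05, above grey ticks for the alternative settings. All ticks lie to the right of 0, and the left-most tick of Lgals9 (0.07, library size only) lies left of the dotted line at 0.18, the median of all tested genes.

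Other ligands of lymphocyte checkpoints moved with the group. Of 11 tested genes 8 rose (list median 1.94), and 5 did without MYC_On replicate 2 or with library size only. Fgl1, a hepatocyte-secreted ligand of LAG-3, rose from 1.65 ± 1.25 to 563 ± 238 CPM and Ceacam1, a ligand of TIM-3, from 1.16 ± 0.432 to 73.1 ± 45.5 CPM (log2 fold change 5.96, or 5.35 without MYC_Off replicate 2). Icosl, the ligand of ICOS, rose by 1.94 (SE 0.41, adjusted p = 0.00733), by 1.27 without MYC_Off replicate 1, and was not called with library size only (1.32, adjusted p = 0.0699). Cd276 (B7-H3) and Pvr (the poliovirus receptor, a TIGIT ligand) did not pass, at -0.50 and -0.44. Both were called lower without MYC_Off replicate 3 (-1.52 and -0.89), and Pvr also with library size only (-1.21, adjusted p = 0.0132).

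Among partners of the anti-phagocytic signals 7 of 9 tested genes rose and 1 fell, with a median log2 fold change of 2.49. Thbs1 (thrombospondin 1, a soluble ligand of CD47) rose from 2.12 ± 0.609 to 23.3 ± 6.56 CPM, and B2m, the light chain of MHC class I, which itself restrains phagocytes, from 371 ± 98.9 to 2592 ± 310.1 CPM. Lrp1, the engulfment receptor for calreticulin, rose from 79.4 ± 24.4 to 770.3 ± 511 CPM, a log2 fold change of 3.28, or 2.51 without MYC_Off replicate 2. The 2 phosphatases recruited by SIRPα went in opposite directions. Ptpn6 (SHP-1), a blood cell enzyme, rose from 12.5 ± 1.93 to 63.8 ± 35.2 CPM, by 2.35 on the log2 scale and by 1.65 without MYC_Off replicate 1. Ptpn11 (SHP-2), expressed in most cells, fell from 149 ± 43.3 to 85.1 ± 12.3 CPM, by 0.81 on the log2 scale (SE 0.27, adjusted p = 0.0399). Ptpn11 did not pass without MYC_On replicate 1 or 2, nor without MYC_Off replicate 3 (adjusted p = 0.0755, 0.107 and 0.0608). Qpctl, the enzyme that modifies the end of CD47 bound by SIRPα, stood at 6.41 ± 0.901 and 12.3 ± 1.61 CPM. Its log2 fold change of 0.94 (SE 0.29, adjusted p = 0.0299) was 0.18 with library size only, and it was not called without any 1 of the MYC_On replicates or MYC_Off replicates 2 and 3.

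**Figure D3:**
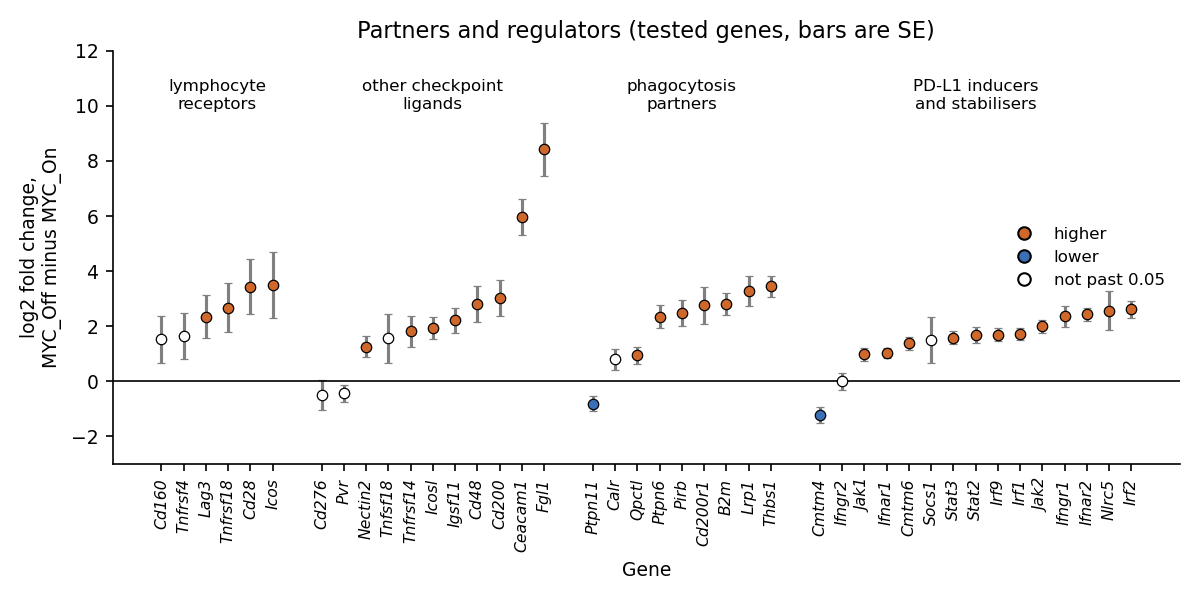
Log2 fold change with standard error of the tested genes in the 4 lists of partners and regulators (1 is not shown), orange where called higher, blue where called lower and open where the adjusted p was not under 0.05. Ptpn11 and Cmtm4 are the called genes below 0, and Fgl1 and Ceacam1 are the highest.

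Markers of the cells that carry these proteins rose too, most in MYC_Off replicate 1. All 15 macrophage markers rose, with a summed level of 741 to 1353 CPM in MYC_On and 2602 to 9854 CPM in MYC_Off (list median 2.51). Their median in MYC_Off replicates 1, 2 and 3 was 3.23, 1.97 and 1.59 above the MYC_On mean in log2 CPM. Leaving out MYC_On replicate 1 or 2 left 7 or 6 of them called, and scaling by library size only left 9. Of 8 tested dendritic cell markers 7 rose (3 without MYC_On replicate 1 or 2), from a summed 17.0 to 20.7 CPM to 44.3 to 159.6 CPM. Clec9a and Siglech were not called without MYC_Off replicate 1 (1.48 and 2.03, adjusted p = 0.0890 and 0.0758). For T and NK cells 6 of 9 tested markers rose, from a summed 2.85 to 5.48 CPM to 5.45 to 249 CPM, and the library medians were 5.24, 2.08 and 0.14 above MYC_On. At most 1 T and NK cell marker was called without MYC_Off replicate 1 or any 1 MYC_On replicate, and 11 were without MYC_Off replicate 3, where Cd5 and Klrb1c had no reads.

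Hepatocyte markers showed the reverse order. Of 9 tested 8 rose, with a summed level of 3731 to 8065 CPM in MYC_On, which is the labelled tissue's defining signal, and 111015 to 282549 CPM in MYC_Off, and library medians of 3.25, 4.31 and 4.71. The MYC_Off libraries stood in the same order by Lgals9 as by these medians, an order of 3 libraries only. Set against the hepatocyte median of the same library, Lgals9 was at -0.52, -0.11 and -0.17 (log2) in MYC_On and at -3.60, -3.70 and -3.47 in MYC_Off, so it was lower relative to these markers in every MYC_Off library. Cd47 was at -4.01, -3.76 and -3.90 in MYC_On and at -4.52, -5.78 and -5.92 in MYC_Off on the same scale, also without overlap. This relative drop was shared: the change in mean ran from -3.32 (Lgals9) to -0.62 (Havcr2) for all tested members except Cd24a, which moved by 1.97. Cd86 (-2.94) and Cd24a did not overlap between groups either. The hepatocyte median itself rose, while each tested member had a positive log2 fold change. Hnf4a, the hepatocyte marker that was not called, had a log2 fold change of 0.46 (adjusted p = 0.405), or -0.38 with library size only. Endothelial markers (8 of 9 tested higher) and stellate cell and fibroblast markers (8 of 9) rose as well. Both tested B cell markers rose, Cd79b and Cd22, and at most 1 was called without any 1 MYC_On replicate. The part of each cell type in the members' changes was not tested.

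**Figure D4:**
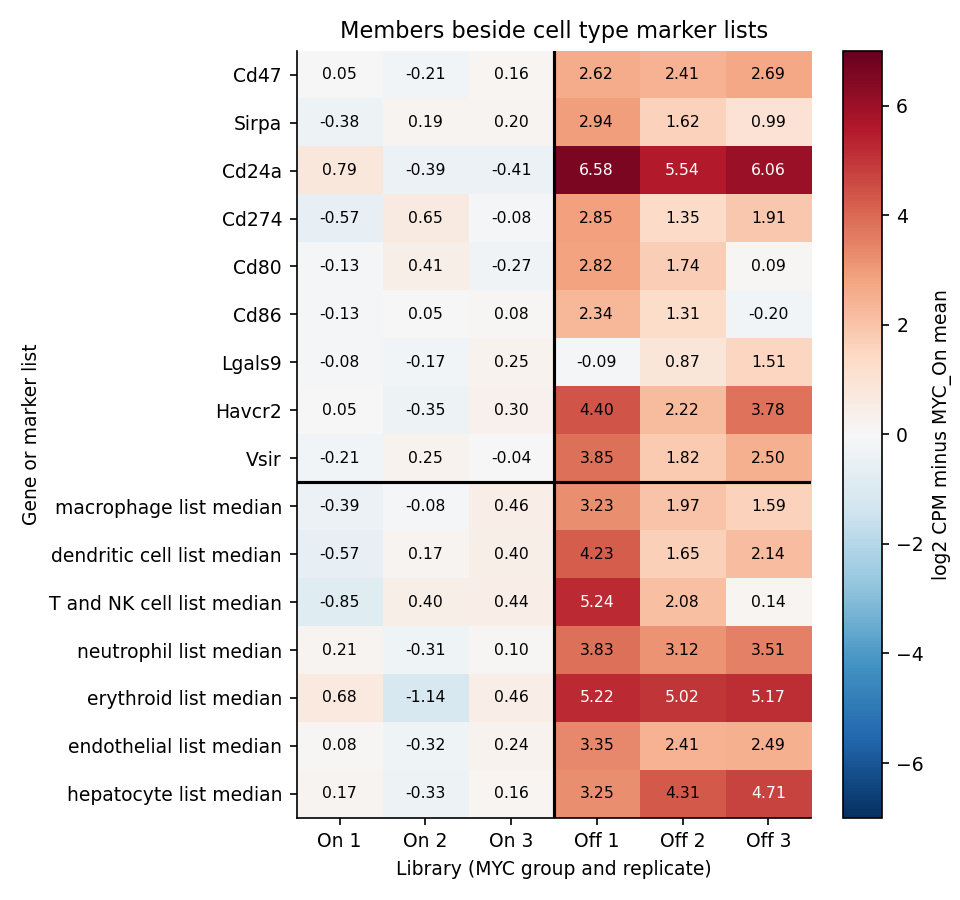
Difference in log2 CPM from the MYC_On mean in each of the 6 libraries, for the 9 tested genes (top) and the medians of marker lists (bottom), red above and blue below. Cd86 and Cd80 drop to -0.20 and 0.09 in MYC_Off replicate 3, as the T and NK cell median does (0.14), while Cd47 stays between 2.41 and 2.69.

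Set against the macrophage markers of the same library, the members parted. The difference between the log2 CPM of a gene and the median of the 15 markers was 0.53, -0.04 and -0.22 for Cd47 in MYC_On and -0.52, 0.53 and 1.19 in MYC_Off, with overlap. For Sirpa it was 1.39, 1.65 and 1.12 in MYC_On and 1.10, 1.03 and 0.78 in MYC_Off. For Cd86 it was -1.60, -1.73 and -2.25 against -2.75, -2.52 and -3.65. Relative to the macrophage markers Cd86 was lower in every MYC_Off library than in any MYC_On library. Sirpa was too, but by a margin of only 1.12 against 1.10. Against the dendritic cell median Sirpa stood at 7.14, 6.97 and 6.74 in MYC_On and at 5.67, 6.92 and 5.80 in MYC_Off, where the groups overlapped, and Cd86 at 4.15, 3.59 and 3.38 against 1.82, 3.36 and 1.37, where they did not. Against the macrophage median Cd24a moved the other way, from -4.31, -5.80 and -6.36 to -2.14, -1.92 and -1.01. Cd274, Cd80, Lgals9, Havcr2 and Vsir overlapped between groups against the macrophage median. Against the dendritic cell median Lgals9 did not overlap, at 9.78, 8.94 and 9.13 in MYC_On and 4.97, 8.50 and 8.65 in MYC_Off. Cd24a did not overlap there either, at 1.45, -0.48 and -0.73 against 2.43, 3.97 and 4.00. With 3 libraries a group the smallest two-sided exact permutation p is 0.1, so none of these differences could pass a test of that kind.

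**Figure D5:**
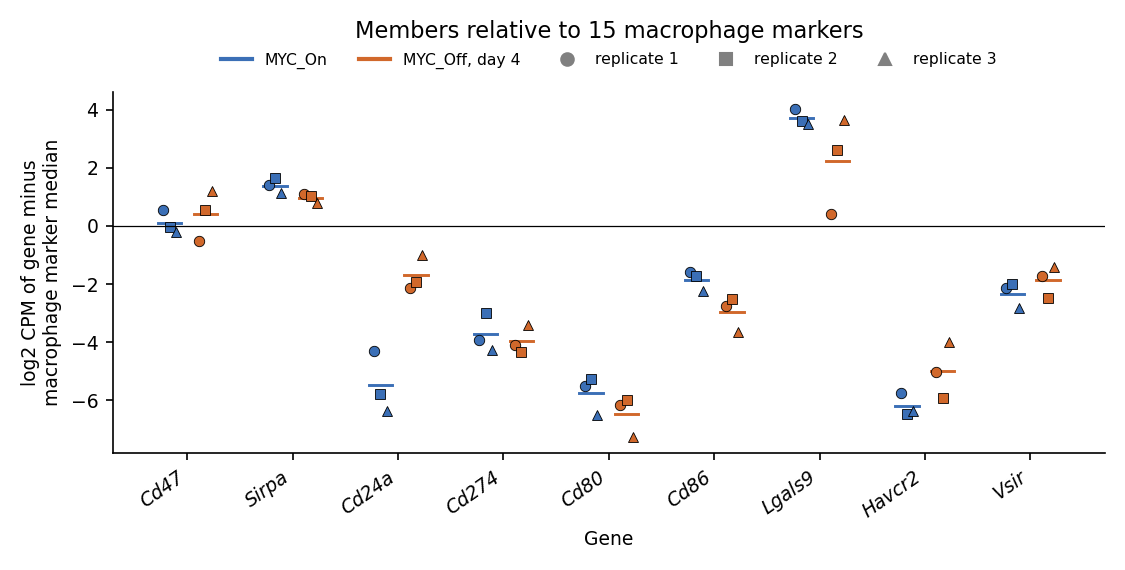
Log2 CPM of each tested gene minus the median log2 CPM of the 15 macrophage markers in the same library, with a line at each group mean (blue MYC_On, orange MYC_Off, shape for the replicate). Cd24a is separated upward, Cd86 and narrowly Sirpa downward, and the other genes overlap.

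The order of levels, given as CPM per kilobase of exon so that genes can be compared, changed most for Cd24a. In MYC_On it ran from Lgals9 (203 ± 32.5) through Sirpa (17.7 ± 3.76), Cd47 (5.57 ± 0.708), Cd86 (2.44 ± 0.188), Vsir (1.29 ± 0.217) and Cd274 (0.694 ± 0.313) to Cd24a (0.265 ± 0.159), Cd80 (0.138 ± 0.0436), Havcr2 (0.128 ± 0.0365) and Pdcd1lg2 (0.109 ± 0.0654). The last 5 overlapped with their neighbours in this order, and the first 5 did not overlap with the next below. In MYC_Off Lgals9 (377 ± 193) and Sirpa (73.9 ± 52.8) still led, followed by Cd47 (33.1 ± 3.19) and then Cd24a (19.7 ± 6.99), which had moved from rank 7 to rank 4. Below it stood Vsir (10.2 ± 7.46), Cd86 (6.89 ± 5.22), Cd274 (3.04 ± 1.65), Havcr2 (2.14 ± 1.36), Pdcd1lg2 (0.629 ± 0.717) and Cd80 (0.597 ± 0.496). From Cd24a down each gene overlapped with the next, as did Sirpa with Cd47, while Lgals9 and Sirpa, and Cd47 and Cd24a, did not.

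The balance of Cd47 to its receptor varied between MYC_Off libraries. Per kilobase the ratio of Cd47 to Sirpa was 0.431, 0.242 and 0.310 in MYC_On and 0.254, 0.553 and 1.04 in MYC_Off, with overlapping groups. Cd47 was the more even of the pair, so the spread of the ratio in MYC_Off follows Sirpa. The genes most like Sirpa over the 6 libraries were Lgmn (root mean square difference 0.10), C1qc (0.12), a macrophage marker of the list above, and Gbp3 (0.12). Those most like Cd47 were Pld1, Plekhf1 and Gabarapl1 (0.13, 0.13 and 0.14). For Cd274 they were Ggta1, Ushbp1 and Bcl2l11 (0.20, 0.20 and 0.21), for Havcr2 Casp4, S100a6 and Cldn5 (0.20, 0.25 and 0.27) and for Lgals9 Fam149a, Emc9 and Ddt (0.07, 0.09 and 0.10).

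The 10 genes lie on 5 chromosomes (mm10, GENCODE release 21), all as protein-coding genes. Cd47 (chr16:49800533-49915010, plus), Cd80 (chr16:38455561-38496335, plus) and Cd86 (chr16:36603869-36666081, minus) share chromosome 16, where Cd80 and Cd86 are 1789 kb apart. Sirpa is at chr2:129592835-129632228 (plus), Cd274 at chr19:29367455-29388095 (plus) and Pdcd1lg2 at chr19:29410919-29471161 (plus). Lgals9 (chr11:78962974-78984946, minus) and Havcr2 (chr11:46454935-46481255, plus) are on chromosome 11, and Cd24a (chr10:43578284-43584265, plus) and Vsir (chr10:60346851-60372684, plus) on chromosome 10. Of the pairs on 1 chromosome, the neighbours Cd274 and Pdcd1lg2 were the closest.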

How the data were processed

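The deposited table holds whole-number read counts for 52459 rows in 6 libraries. The submitters' processing notes list STAR, featureCounts, Trimmomatic, Picard and DESeq2 and the mm10 build. What versions, annotation and strand setting they had is not given in the sources used here. Deposited counts are raw, not normalized. In 26 rows the symbol had become a date, and these were kept under a row number. Symbols were matched to GENCODE mouse release 21 (91.7%).

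The contrast MYC_Off minus MYC_On was fitted in R 4.3.3 by edgeR 4.0.16 (robust quasi-likelihood, TMM) on the 14130 genes that filterByExpr kept at a minimum count of 10 and a minimum total of 15. Calls used a Benjamini-Hochberg adjusted p of 0.05. The SE is the absolute log2 fold change over the root of F. Log2 CPM had a prior count of 2. Groups came from the titles. Same-numbered libraries did not deviate together, but with deviations centred within groups of 3 this check cannot exclude a pairing. Replicates differed by more than sampling noise (the lowest chi-square was 29.1 per degree of freedom). The fit was also run on simulated counts in which few genes changed, unlike in these data, so that run says nothing about the scaling.

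Named are the 10 members, their direct partners, the 4 called genes with the smallest adjusted p in each of 4 pathway lists, the most abundant and defining markers among 10 cell type lists, and the 3 genes most like a member (those reaching a group mean of 10 CPM, without unnamed gene models). A few further list genes were named after their values were seen, where a count rests on them. Genes picked by this rule that are not named are not reported here. The members and lists were chosen with earlier results of these data known. Alternatives were DESeq2 1.42.0 or its size factors, library size only, 2 filters, limma-voom (limma 3.58.1), a replicate block, glmTreat against 2-fold and leaving out each library. Figures used matplotlib 3.10.9.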

Additional observations from a re-analysis of the deposited data

How the results depend on the processing

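All 9 tested members kept a positive log2 fold change under each of the alternatives run, and Cd47, Cd24a, Havcr2 and Vsir stayed past the threshold in each. The number of members called higher ran from 4 to 8. It was 4 with library size only and with glmTreat against 2-fold, 8 with DESeq2, and 4 to 8 over the fits that left out 1 library. For all tested genes, 2527 were higher and 5300 lower with library size only, and 2621 and 1428 against a minimum change of 2-fold, against 4222 and 3221 in the comparison reported. Leaving out 1 library gave 2776 to 4317 higher, the lowest without MYC_On replicate 2, and the cause was not tested. The labels do not say whether replicate numbers pair the samples. Correlations of deviations across genes were -0.26, -0.17 and 0.04 for numbers 1, 2 and 3. With deviations centred within groups of 3 libraries, these values cannot exclude a pairing. With a replicate block 4 members were higher, Sirpa and Cd274 not being called (adjusted p = 0.0579 and 0.0571), and 3152 genes were higher and 2611 lower. At this depth 1 read is 0.0409 to 0.0768 scaled CPM, which limits Pdcd1lg2, Cd80, Havcr2, Pdcd1, Ctla4 and Siglecg most.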

Other observations

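Lgals9 held the highest share of the summed level of the 10 genes in each library, counted as CPM per kilobase of exon. This share was 89%, 85.5% and 88.5% in MYC_On replicates 1, 2 and 3 and 44.4%, 77.0% and 84.7% in MYC_Off. The Sirpa share was 6.22%, 9.49% and 7.36% in MYC_On and 31.4%, 11.2% and 5.08% in MYC_Off. Cd24a made up at most 0.21% in MYC_On and 6.34%, 2.75% and 2.79% in MYC_Off, and the Cd47 share went from 2.28% to 2.68% in MYC_On to 5.27% to 7.98% in MYC_Off. These shares are taken within a library and do not depend on the scaling between libraries.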
